A study of Homo sapiens with 5 samples.

Results

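Peaks of SF-1, the nuclear receptor steroidogenic factor-1 encoded by NR5A1, were collected around CYP11A1 (ENSG00000140459), which lies on the minus strand at chr15:74630100-74659987 of hg19 (GRCh37) and spans 29.9 kb. A peak was a member when its centre fell within 100 kb of the gene body, which sets a region of 230 kb at chr15:74530100-74759987. The 4 deposited lists held 30372 peaks in all, and 32 of them were members. Peaks of different lists that overlapped by at least 1 bp were taken as the same site, which left 24 distinct sites. The locus was chosen by its number of peaks in these same lists, so the counts of peaks are a description and were not tested.

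The lists came from chromatin immunoprecipitation followed by sequencing in H295R/TR SF-1 cells, a derivative of the established human adrenocortical tumor cell line H295R in which doxycycline raises the amount of SF-1. Both dosages were measured in this same line, basal SF-1 without doxycycline and overexpressed SF-1 after 3 days with it. Each dosage was precipitated with an antibody from Millipore and with an antibody from Perseus. Each of the 4 lists was called by the authors on 3 pooled libraries, with 2 libraries of input chromatin as the control, so there was 1 list per group and no replicate error. The read depth behind the lists is unknown, the lists hold no expression values with which to check the cell line against marker genes, and a difference between lists cannot be told apart from a difference in depth or antibody yield. The intervals given below are exact 95% binomial intervals, which cover counting error over peaks only.

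CYP11A1 encodes the cholesterol side-chain cleavage enzyme, a cytochrome P450 of the inner mitochondrial membrane. It turns cholesterol into pregnenolone, the step with which the synthesis of all steroid hormones begins, and it receives electrons from ferredoxin reductase (FDXR) through ferredoxin (FDX1). SF-1 is a nuclear receptor that binds DNA as a monomer, and CYP11A1 is among its classical targets in the adrenal gland and gonads.

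The site found in all 4 lists is shown because no other site near the gene had that property. Its common part lay at chr15:74619151-74619349, in intron 11 of the neighbouring gene CCDC33, with its centre 10850 bp beyond the far end of CYP11A1. The peak nearest to the transcription start is shown because it is the member that covers the coding part of exon 1, at chr15:74659701-74659899. The 250 bases before the start, chr15:74659988-74660237, are shown because they held an SF-1 consensus that lay in no peak. Capitals mark the SF-1 consensus on either strand, and a line without capitals holds none. The sequences were read from GRCh37, both peaks on the plus strand and the bases before the start on the strand of the gene.
Site in all 4 lists: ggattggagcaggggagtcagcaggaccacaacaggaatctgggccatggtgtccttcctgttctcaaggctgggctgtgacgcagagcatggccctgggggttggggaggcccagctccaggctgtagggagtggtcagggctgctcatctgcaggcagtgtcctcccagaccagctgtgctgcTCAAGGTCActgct
Peak in exon 1: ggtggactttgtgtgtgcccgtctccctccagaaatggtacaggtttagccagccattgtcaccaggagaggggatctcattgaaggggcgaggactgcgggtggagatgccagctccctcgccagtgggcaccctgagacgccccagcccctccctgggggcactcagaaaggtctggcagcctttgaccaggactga
Bases before the start: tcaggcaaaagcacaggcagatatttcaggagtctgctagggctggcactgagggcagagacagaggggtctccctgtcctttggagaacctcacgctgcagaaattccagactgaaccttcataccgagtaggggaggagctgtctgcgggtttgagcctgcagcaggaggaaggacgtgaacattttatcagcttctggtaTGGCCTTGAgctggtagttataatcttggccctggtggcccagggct

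The SF-1 consensus searched was any of the 8 words TCAAGGTCA, TCAAGGTCG, TCAAGGCCA, TCAAGGCCG, CCAAGGTCA, CCAAGGTCG, CCAAGGCCA and CCAAGGCCG, without mismatch and on either strand. It was found 9 times in the peaks near CYP11A1, at 7 sites. Each occurrence is printed with 10 bases on each side, on the strand that carries the word, to let the forms be compared.
CCDC33 intron 2, 116 kb downstream of the start: cagtctacaaTCAAGGTCAagctcagtgt
The same site, other word: catcctgtgaCCAAGGCCAgcctcagtct
CCDC33 intron 11, 44.4 kb downstream: agagcactggCCAAGGTCActtcctccag
CCDC33 intron 11, 40.7 kb downstream, in all 4 lists: gctgtgctgcTCAAGGTCActgctgtgcg
SEMA7A intron 10, 44.6 kb upstream: agccacttgcTCAAGGTCAcacagctggt
SEMA7A intron 1, 53.4 kb upstream: cactcctgcaCCAAGGCCAcaggcccagg
SEMA7A intron 1, 65.0 kb upstream: tgtgacttgcCCAAGGTCActgagcagtg
Between SEMA7A and UBL7, 74.5 kb upstream: gaatgtctccCCAAGGTCAccaaggcaca
The same site, other word: gtcaacaagtCCAAGGTCAgcccttctgt

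Over the whole region the form CCAAGGTCA occurred 16 times, with 4 in a peak, TCAAGGTCA 9 times with 3 in a peak, and CCAAGGCCA 13 times with 2 in a peak. TCAAGGCCA also occurred 9 times, with 0 in a peak. CCAAGGCCG and TCAAGGCCG were found 2 times and 1 time, outside the peaks, and the remaining forms were not found in the region.

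The peaks were unevenly divided between the lists. The basal Millipore list had 5 members among 4393 peaks, the overexpressed Millipore list 19 among 11910, the basal Perseus list 3 among 6616 and the overexpressed Perseus list 5 among 7453. Of the 24 sites, 16 lay upstream of the start, 2 inside the gene body and 6 beyond its far end. The gap between neighbouring sites ranged from 51 bp to 70.8 kb with a median of 5.7 kb, so the sites were unevenly spaced. The longest gap, of 70.8 kb, lay between sites beyond the far end of the gene. Between the peaks in intron 1 and the sites beyond the far end, 38.4 kb held no peak, which includes almost the whole gene body.

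**Figure D1:**
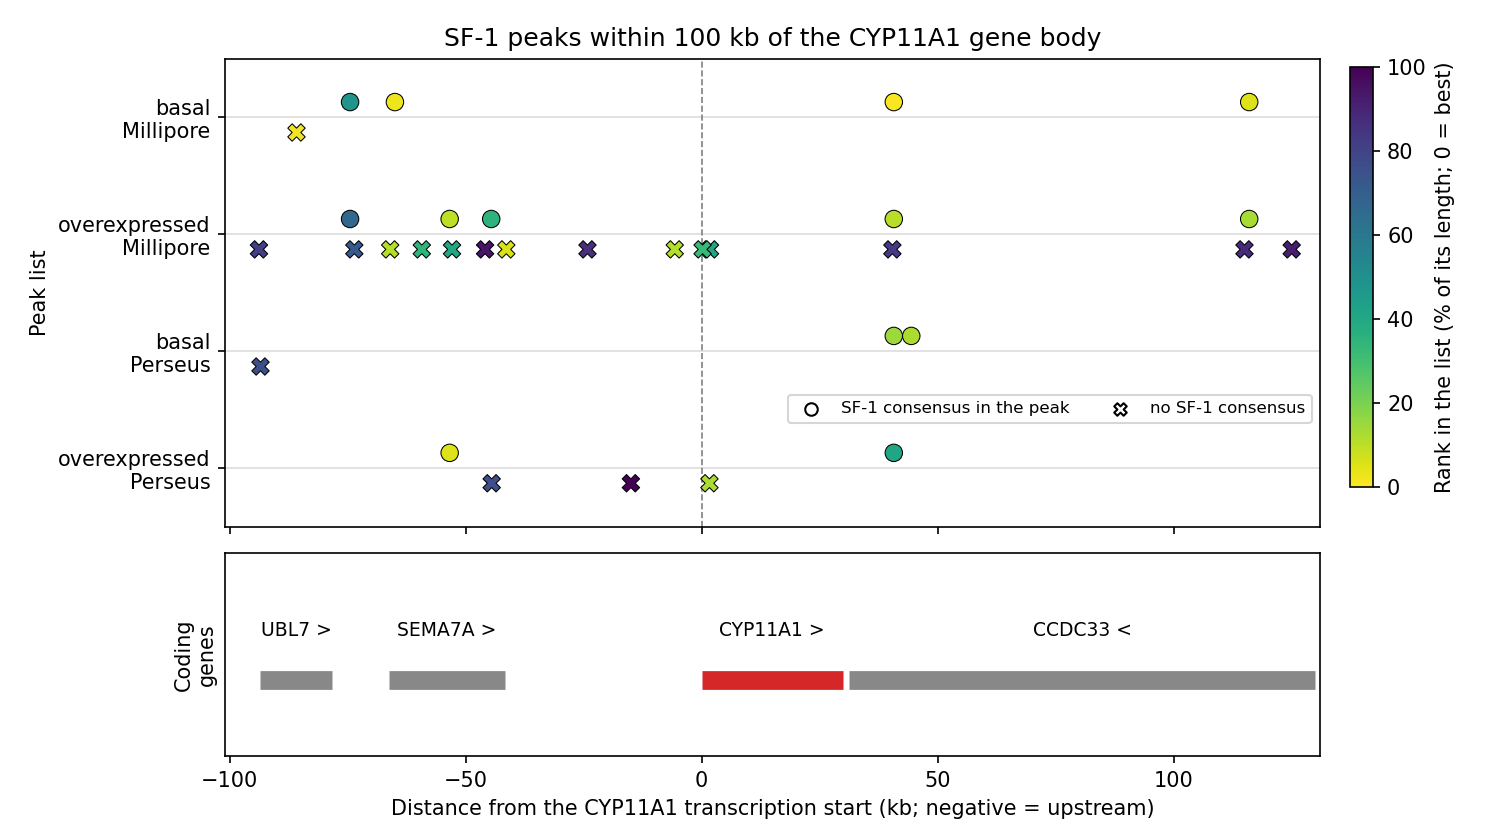
Peaks within 100 kb of the CYP11A1 gene body in each of the 4 lists (rows), by distance from the transcription start in kb, with upstream to the left; circles hold the SF-1 consensus, crosses do not, and the colour gives the rank as a percentage of the list. Coding genes are drawn below to scale with arrows for their direction as plotted, and the position 40.7 kb downstream carries a peak in every list.

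Beyond the far end of the gene all 6 sites lay in introns of CCDC33, a gene on the plus strand at chr15:74495046-74628813. The site in all 4 lists was the best-ranked member of the basal Millipore list, at rank 41 of 4393 (chr15:74619101-74619449). It had rank 1283 of 11910 with the same antibody at overexpressed dosage, with the same coordinates. With the Perseus antibody it had rank 973 of 6616 at basal dosage (chr15:74619151-74619449) and rank 3035 of 7453 at overexpressed dosage (chr15:74619151-74619349). It therefore stood in the best-ranked 0.933%, 10.8%, 14.7% and 40.7% of the 4 lists, in that order. The lists differ in length and the quantity ranked is not stated, so these percentages describe the place of the site in each list and not the strength of binding.

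Only 51 bp separated this site from a weaker-ranked peak of the overexpressed Millipore list at chr15:74619501-74619699 (rank 9873). A basal Perseus peak lay 44.4 kb downstream of the start at chr15:74615501-74615749, and at rank 805 it was the best-ranked member of its list. Farther out, in intron 2 of CCDC33, both Millipore lists shared a site that held 2 consensus words. It had rank 238 at basal dosage (chr15:74544001-74544149) and rank 1575 at overexpressed dosage (chr15:74543951-74544199). The remaining peaks of CCDC33 were both from the overexpressed Millipore list and low in rank, at chr15:74544651-74544749 (rank 10429) and chr15:74534951-74535049 (rank 10948, intron 1).

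Inside CYP11A1 peaks were found at overexpressed dosage only, at 2 sites close to the start. Over the genome 69.8% of sites had a peak at overexpressed dosage, 40.7% at basal dosage and 10.5% at both. With 2 sites, the lack of a basal peak is a description and does not set the gene body apart. The exon 1 peak of the overexpressed Millipore list had rank 3883 of 11910, and its centre lay 187 bp into the gene. The other site was in intron 1 of the main transcript and was shared by both antibodies, with rank 4917 in the Millipore list (chr15:74658101-74658349) and rank 917 in the Perseus list (chr15:74658251-74658449). The centres of these 2 peaks lay 1762 and 1637 bp into the gene, and the annotation places them in the 5′ UTR of shorter CYP11A1 transcripts, the outermost of which starts at 74658547. Neither site held the SF-1 consensus. An antisense long non-coding RNA, ENSG00000261821, overlaps both sites, so the peaks cannot be assigned to either gene.

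The consensus nearest to the transcription start lay outside the peaks. The word TCAAGGCCA was at chr15:74660026-74660034, from 39 to 47 bp upstream of the start, and 126 bases separated it from the exon 1 peak. Peak starts fell on a grid of 50 bp in all 4 lists, so the distance is larger than that step. Among 35116 RefSeq promoters of 300 bases, 250 before and 50 after the start, 2.55% held the consensus. In the gene body 5 consensus words were found, and 0 of them lay in a peak.

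Upstream of the gene the sites fell in the intergenic stretch and in SEMA7A and UBL7. Between CYP11A1 and SEMA7A, the peaks nearest to CYP11A1 were at chr15:74665601-74665799 (overexpressed Millipore, rank 1308, 5713 bp upstream), chr15:74674901-74674999 (overexpressed Perseus, rank 7410, in an intron of LINC02255) and chr15:74684051-74684249 (overexpressed Millipore, rank 10319). The best-ranked member of the overexpressed Millipore list lay in the same stretch, at chr15:74701351-74701499 with rank 655 of 11910, and it held no consensus. These 4 peaks were each in 1 list.

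SEMA7A, which encodes a membrane-anchored semaphorin, lies on the minus strand at chr15:74701630-74726299 and held 7 sites. The site in intron 1 at chr15:74713251-74713499 had identical coordinates with both antibodies at overexpressed dosage. Its rank was 1168 of 11910 with Millipore and 395 of 7453 with Perseus, where it was the best-ranked member. A site in intron 10 was also found with both antibodies at overexpressed dosage, at chr15:74704401-74704849 (Millipore, rank 4228) and chr15:74704451-74704599 (Perseus, rank 5680). Its consensus lay in the part covered by the wider Millipore peak alone.

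The other 5 sites of SEMA7A were each in 1 list. Of these, the basal Millipore peak at chr15:74724851-74725049 had rank 108 of 4393 and held the consensus. The overexpressed Millipore peak at chr15:74725901-74726149 had rank 1346 of 11910 and its centre lay 274 bp from the SEMA7A start, in sequence with a GC content of 73.9%. The remaining overexpressed Millipore peaks were at chr15:74705851-74705949 (rank 11274), chr15:74712851-74712999 (rank 4821) and chr15:74719201-74719349 (rank 4184).

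Between SEMA7A and UBL7 the Millipore lists shared a site at chr15:74734401-74734549 (overexpressed, rank 7938) and chr15:74734451-74734599 (basal, rank 2096), next to an overexpressed Millipore peak at chr15:74733551-74733699 (rank 8609). UBL7, a gene for a ubiquitin-like protein at chr15:74738318-74753523, held 2 sites. In its intron 3 the basal Millipore list had a peak of rank 101 of 4393 at chr15:74745701-74745999, without the consensus. A basal Perseus peak at chr15:74753451-74753549 (rank 5015) had its centre 23 bp from the UBL7 start, and an overexpressed Millipore peak at chr15:74753751-74753849 (rank 9725) lay 277 bp from it, in UBL7-DT. By the nearest coding start, 10 of the 24 sites were assigned to SEMA7A, 8 to CYP11A1, 3 to UBL7 and 3 to STRA6, a gene outside the region, where a gene is placed at its outermost start. With every coding transcript start, an alternative chosen after seeing the data, 9 sites were assigned to SEMA7A, 6 to CCDC33 (the site in all 4 lists among them), 5 to CYP11A1, 4 to UBL7 and 0 to STRA6. By either measure most of the sites were closer to a start of another gene.

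Few sites were shared between lists. In 1 list alone there were 18 sites, in 2 lists 5, in 3 lists 0 and in all 4 lists 1. Thus 6 of 24 sites were in 2 or more lists, against 13.8% of the 25693 sites of the genome. The overexpressed Millipore list alone accounted for 13 sites. At overexpressed dosage 20 of the 24 sites had a peak with either antibody (62.6 to 95.3%), against 69.8% of the sites of the genome. At basal dosage 7 sites had a peak (12.6 to 51.1%), against 40.7%, and 3 sites had a peak at both dosages (2.66 to 32.4%), against 10.5%. Each genome value lay inside the interval.

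Read by list, 3 of the 5 basal Millipore members (interval 14.7 to 94.7%) were shared with another list, against 20.9% of that whole list. In the overexpressed Millipore list it was 6 of 19, or 31.6% (12.6 to 56.6%), against 16.6%. In the basal Perseus list it was 1 of 3 against 37.7%, and in the overexpressed Perseus list 4 of 5, or 80.0% (28.4 to 99.5%), against 37.9%. For the 3 basal Perseus members the interval ran from 0.84 to 90.6%. In each of the 4 lists the value of the whole list lay inside the interval. The members come from 1 locus and may not be independent, so the intervals describe the counts and do not test a difference in sharing.

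More members were found at overexpressed than at basal dosage with both antibodies. With Millipore the count went from 5 to 19, a ratio of 3.8, while the whole list grew by a ratio of 2.71. Overexpressed peaks were 79.2% of the 24 Millipore members (57.8 to 92.9%), against 73.1% of all Millipore peaks. With Perseus the count went from 3 to 5, a ratio of 1.67 against 1.13 for the list, and the interval of the overexpressed share ran from 24.5 to 91.5% around a list value of 53.0%. In both antibodies the list value was inside the interval. When every list was shortened to its best 4393 peaks, 9 overexpressed Millipore members were left.

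**Figure D2:**
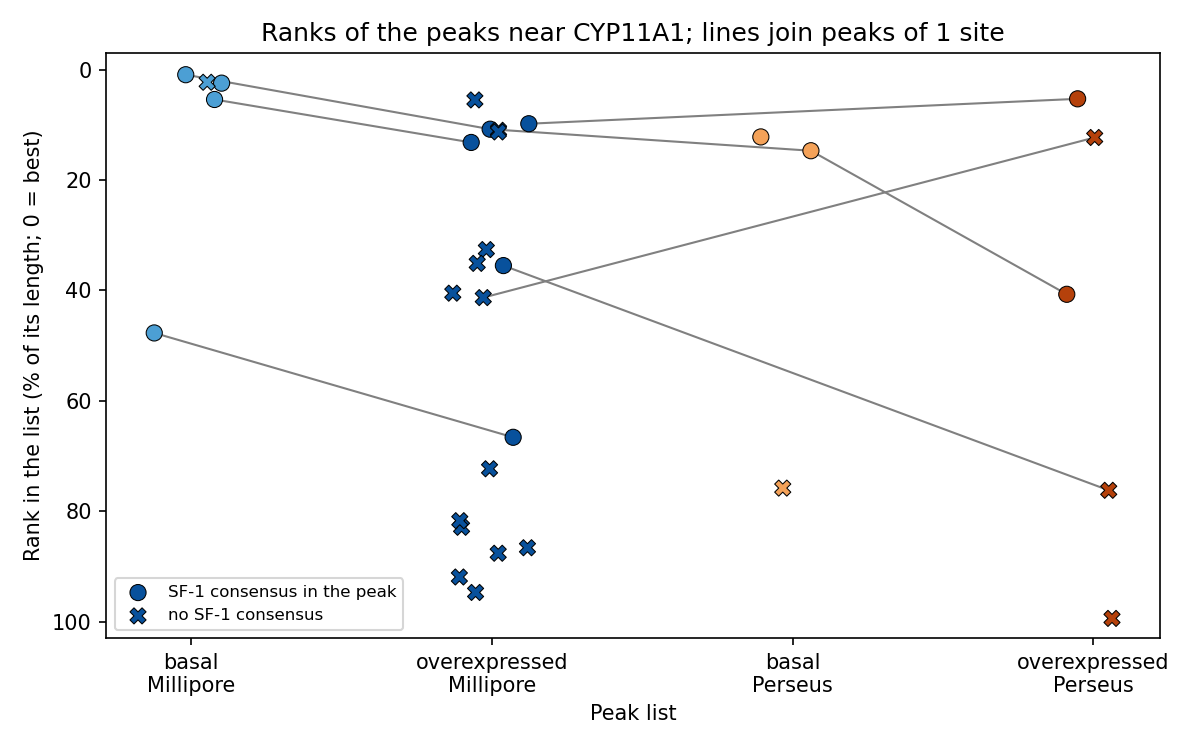
Rank of each of the 32 peaks as a percentage of the length of its list, with 0 as the best rank at the top, by list; circles hold the SF-1 consensus, crosses do not, and lines join peaks of the same site. The basal Millipore members lie near the top apart from 1 at 47.7%, and the overexpressed Millipore members extend over the whole range.

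The basal Millipore members ranked high in their list, with a median rank of 108 of 4393 and 4 of 5 in the best-ranked 25%. The overexpressed Millipore members had a median rank of 4821 of 11910, and 6 of 19 were in the best-ranked 25%. For Perseus the medians were 973 of 6616 and 3035 of 7453. Within the overexpressed Millipore list the 5 members with the consensus had a median rank percentage of 13.2 (range 9.81 to 66.6), and the 14 without it 56.8 (range 5.5 to 94.7), so the ranges overlapped. In the basal Millipore list the peak without the consensus, at 2.3%, ranked better than 3 of the 4 peaks with it. The Perseus lists had 2 members each with the consensus, at 12.2 and 14.7% at basal dosage and at 5.3 and 40.7% at overexpressed dosage. Those without it were at 75.8% at basal dosage and from 12.3 to 99.4% at overexpressed dosage.

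The SF-1 consensus was found in 4 of 5 basal Millipore members, or 80.0% (28.4 to 99.5%), against 16.0% of that list. It was found in 5 of 19 overexpressed Millipore members, or 26.3% (9.15 to 51.2%), against 10.9%. In the Perseus lists it was 2 of 3 against 21.6% at basal dosage and 2 of 5 against 17.2% at overexpressed dosage. The list value lay below the interval for the basal Millipore members and inside it for the other 3 lists. The basal Millipore members ranked high, with a median of 108 of 4393, and were wider, with a median of 199 against 149 bp. The whole list was not matched to them for rank or width, so the difference in share cannot be assigned to the locus. In windows of the same width 5 kb to each side of the peaks, the consensus was present in 1.0 to 1.86% of windows over the whole lists. Beside the members it was in 0 of 10 basal and 0 of 38 overexpressed Millipore windows. For Perseus it was in 0 of 6 basal and 0 of 10 overexpressed windows. At shares this low, 0 in so few windows says little. Of the basal Millipore members, the only peak without the consensus was that in intron 3 of UBL7.

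By site, 5 of the 6 sites in 2 or more lists held the consensus, or 83.3% (35.9 to 99.6%), against 34.0% of such sites in the genome. Of the 172 genome sites in all 4 lists 68.6% held it, and 1 of the 6 sites was of that kind. The genome sites were not matched for rank, width or number of lists, so the difference cannot be assigned to the locus. Near CYP11A1 a site counted when any of its peaks held the consensus. At the shared site in intron 10 of SEMA7A only the Millipore peak held it, outside the part common to both lists. Among the 18 sites in 1 list it was 2, or 11.1% (1.38 to 34.7%), against 10.1%. The exception among the shared sites was that in intron 1 of CYP11A1. The region held 50 consensus words, 0.217 per kb against 0.0681 per kb over the genome. Of these 50 words 9 lay in a peak, 18.0% (8.58 to 31.4%) against 1.98% of the words of the genome. The region was chosen by its number of peaks, so a higher share of words in peaks is part of the choice. The other 41 words lay 97 to 33012 bp from the nearest peak.

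The number of peaks around CYP11A1 was set beside that around each of the 20163 protein-coding genes, counted in the same way. In the basal Millipore list 0.312% of genes had at least as many peaks as CYP11A1, and in the overexpressed Millipore list 0.253%. In the Perseus lists the percentages were 14.5 at basal and 5.73 at overexpressed dosage, so CYP11A1 stood higher among the genes in the Millipore lists. The locus was chosen by its number of peaks, so a high place is part of the choice. Within 50 kb of the gene body 1 basal and 9 overexpressed Millipore peaks were left. The neighbours CCDC33, SEMA7A and UBL7 also count peaks of this region. At least as many peaks as around CYP11A1 in each of the 4 lists were found for 9 genes, CYP11A1 included. Of the others, TNS3 is on chromosome 7, while CRAT, DOLPP1, ENG, MIGA2, NUP188, PTPA and SH3GLB2 lie within 1330 kb of each other on chromosome 9, where close neighbours count the same peaks.

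**Figure D3:**
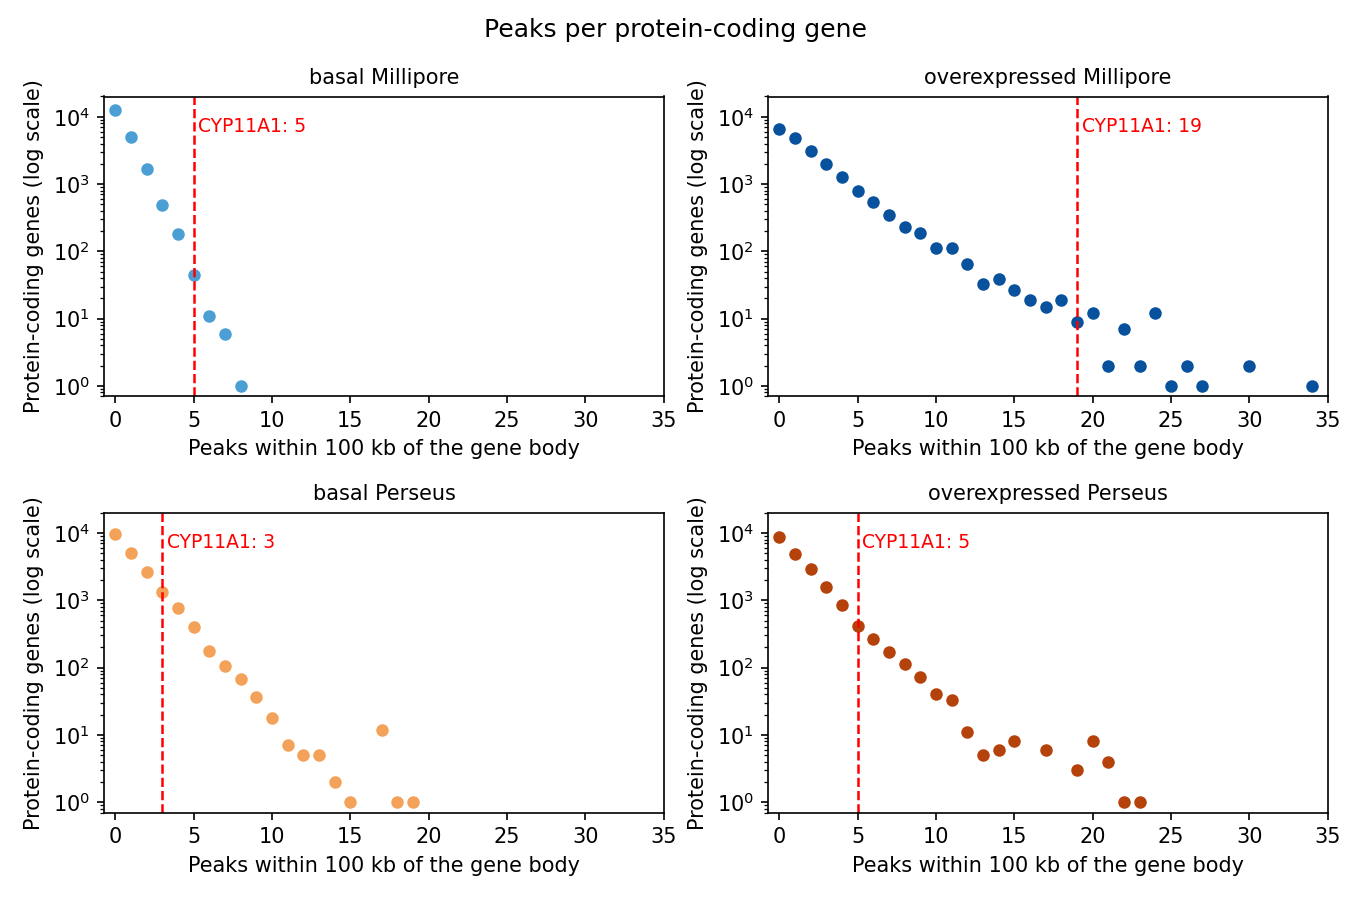
Number of peaks within 100 kb of the gene body for the 20163 protein-coding genes in each list, with the count for CYP11A1 marked. The marked counts are 5, 19, 3 and 5, and the most peaks around any gene are 8, 34, 19 and 23 in the same order of lists.

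In all 4 lists the density of peaks was higher within 100 kb of the gene than in the wider intervals. The region was chosen by its number of peaks, so a higher density inside it is part of the choice. In the overexpressed Millipore list the density was 82.6 peaks per Mb within 100 kb, 20.0 between 100 and 500 kb and 14.0 between 500 kb and 1 Mb, against 4.17 over the genome. In the basal Millipore list it was 21.7, 2.5 and 6.0, from 5, 2 and 6 peaks, against 1.54. In the Perseus lists it was 13.0 and 21.7 within 100 kb at basal and overexpressed dosage, and 8.75 in both between 100 and 500 kb. Between 500 kb and 1 Mb it was 5.0 in both Perseus lists, against 2.31 and 2.61 over the genome. The Perseus values rest on 3 and 5 peaks within 100 kb and on 7 peaks in each list between 100 and 500 kb. Between 500 kb and 1 Mb they rest on 5 peaks in each list. The GC content was 52.6% within 100 kb and 49.5% and 47.3% in the wider intervals. Its part in the density was not tested. At the edge of the region, the last member and the first peak outside lay 86.0 and 192 kb from the gene in the basal Millipore list and 95.1 and 158 kb in the overexpressed one. For Perseus they lay 93.5 and 179 kb away at basal dosage and 53.4 and 174 kb away at overexpressed dosage.

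**Figure D4:**
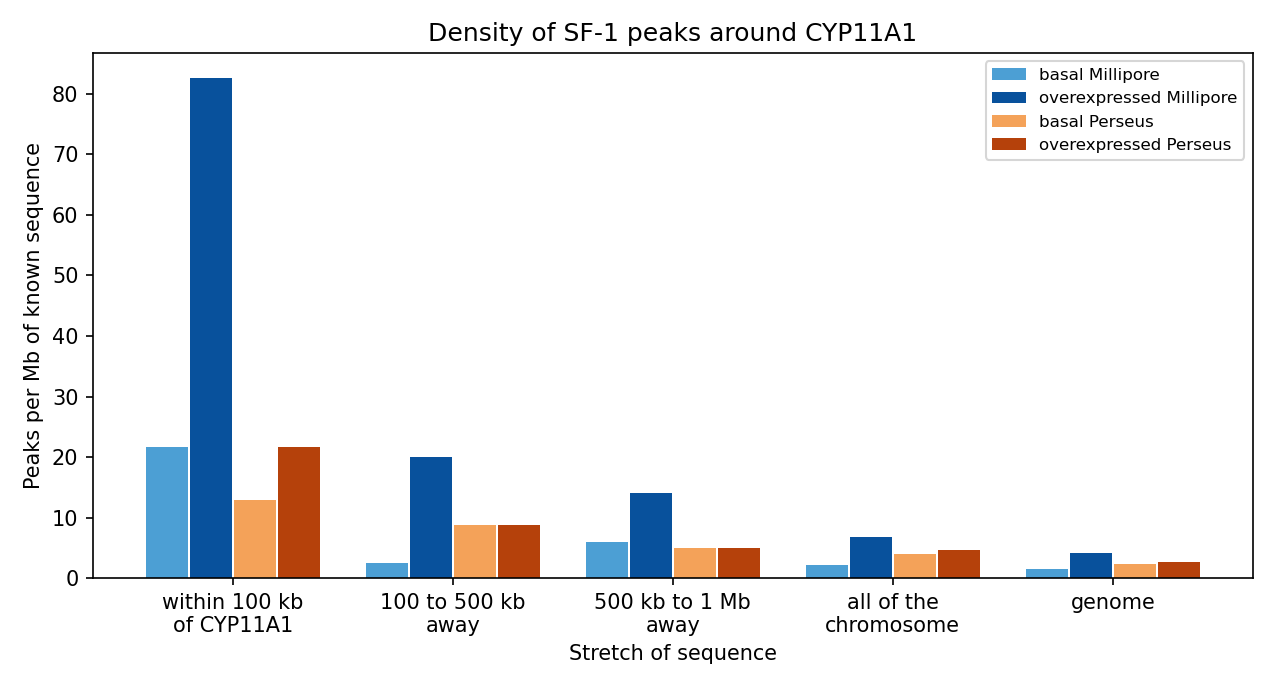
Peaks per Mb by distance from the CYP11A1 gene body, over chromosome 15 and over the genome, for each list. The overexpressed Millipore list falls from 82.6 within 100 kb to 20.0 between 100 and 500 kb.

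Around 19 other genes of steroid synthesis and its regulation, no gene had as many peaks as CYP11A1 in either Millipore list. CYP11A1 was chosen by its number of peaks in these same lists, so a place above the other genes is part of the choice. The most peaks around any of them were 2 in the basal Millipore list, for STAR, the carrier of cholesterol into mitochondria, and for NR5A1 itself, and 10 in the overexpressed Millipore list, for POR, the electron donor of microsomal P450 enzymes. In the Perseus lists other genes exceeded CYP11A1, with 4 peaks for CYP17A1, which makes androgen precursors and cortisol precursors, at basal dosage and 6 for POR at overexpressed dosage. A peak was present for 8, 12, 12 and 14 of the 19 genes in the basal Millipore, overexpressed Millipore, basal Perseus and overexpressed Perseus lists. Over all coding genes the percentages with a peak were 36.5, 67.9, 52.6 and 56.7 in the same order. The number of distinct sites had a median of 2 and a maximum of 13, for POR and NR5A1, against 24 for CYP11A1.

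The redox partners of CYP11A1 had 3 sites (FDX1) and 5 sites (FDXR). STAR had 8 sites, SCARB1, the receptor for high-density lipoprotein, 7, and CYP17A1 5. HSD3B1 and HSD3B2 lie side by side and have the same 2 peaks, and CYP11B1 and CYP11B2 have the same 3 peaks. NR0B1, which encodes the SF-1 corepressor DAX-1, had 0 peaks in all 4 lists.

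**Figure D5:**
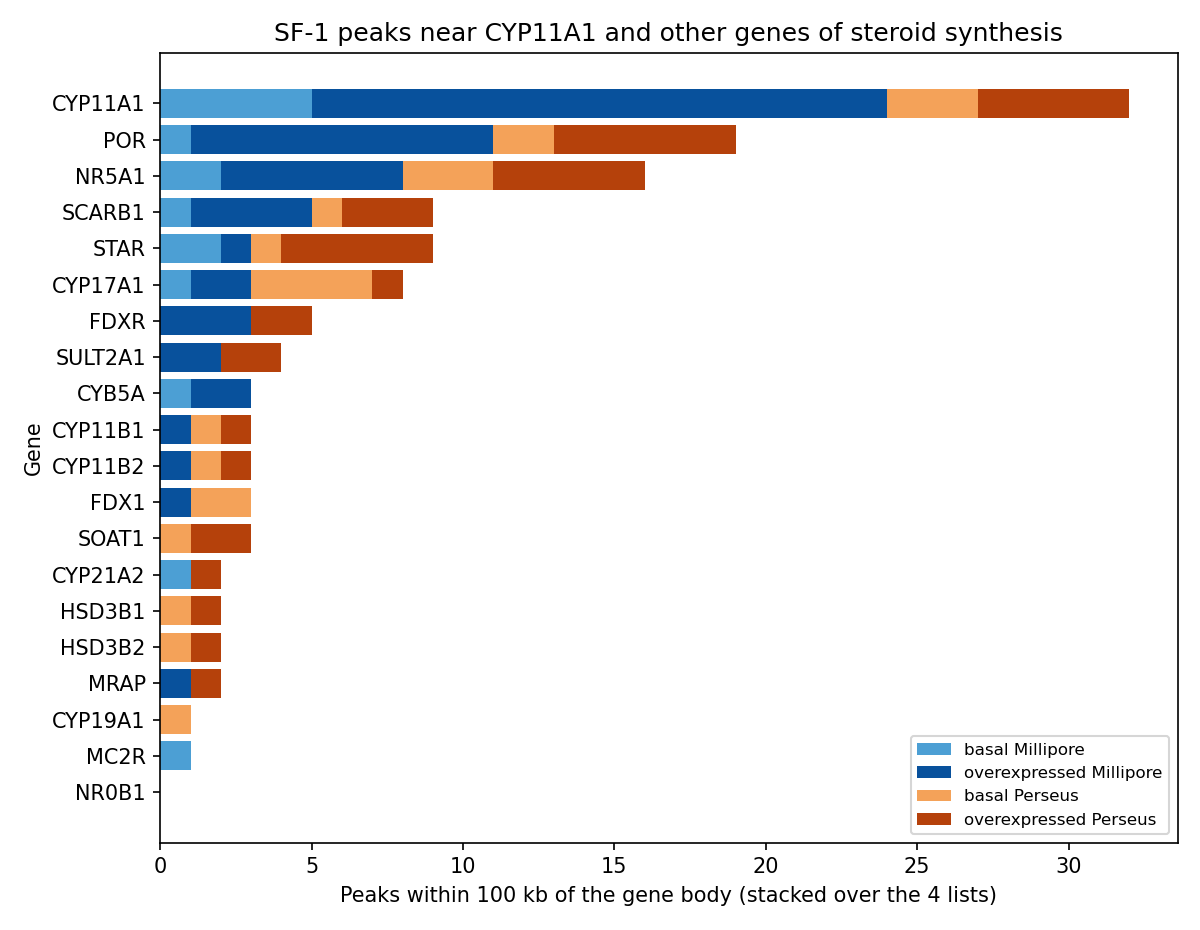
Number of peaks within 100 kb of the gene body for CYP11A1 and 19 other genes of steroid synthesis and its regulation, in each list, ordered by total. CYP11A1, which was chosen by its number of peaks, has the most in both Millipore lists, and POR and CYP17A1 exceed it in the overexpressed and basal Perseus lists.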

How the data were processed

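Per the labels and the study's methods, the authors mapped reads to hg19 with ELAND and called peaks with the SeqPeak program of CisGenome on the 3 libraries of each group together, against input. The submitters' processing notes also name CASAVA 1.6. Each deposited list gives positions, a rank whose underlying quantity is not stated, and a score that the authors set to the same value for every peak and that carries no measurement. The reads behind the peaks and the input were not analysed here.

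Positions were compared with GRCh37 and GENCODE 44 mapped to it, and all coordinates are 1-based. Peaks were shared at an overlap of at least 1 bp, chained into sites. No test was made, since each group is 1 list. Shares carry exact Clopper-Pearson intervals. The neuron-restrictive silencer factor consensus allowed 4 mismatches at its 19 fixed positions. The overlap counts and sequence searches were tested on simulated data. The named peaks were the best-ranked member of each list, those in the gene or within 1 kb of its start and the sites in 2 or more lists, and every other member is given by position and rank. The sequences before the start and around each consensus were added to those the rule names. A further gene of the steroid synthesis list is not reported here. The members and lists were chosen with earlier results of these data known. Python 3.11.15 was used with numpy 2.4.6, pandas 2.3.3, scipy 1.17.1 and matplotlib 3.10.9.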

Additional observations from a re-analysis of the deposited data

How the results depend on the processing

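Of 42 alternative values computed, 30 stayed within 1.5 times the reported one and 12 did not. Within 50 kb of the gene body there were 1 basal Millipore and 9 overexpressed Millipore peaks, 3 sites in 2 or more lists and 3 with the consensus. In the better-ranked 50% of each list 11 overexpressed Millipore and 3 overexpressed Perseus peaks were left. With lists of equal length, 4393 peaks each, there were 9 overexpressed Millipore and 3 overexpressed Perseus peaks and 3 sites in 2 or more lists. The consensus was found at 11 sites with 1 mismatch allowed and at 13 with 200 bp added on each side of the peaks. With any coding transcript start, chosen after seeing the data, 5 sites in place of 8 were nearest to CYP11A1. The fall in the counts of peaks and shared sites follows from a smaller region or fewer peaks, and the rise from a looser or longer search. No paired analysis was possible because each group is 1 list called on pooled libraries, and no library could be left out for the same reason. The unknown depth limits every difference between lists.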

Other observations

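The peaks near CYP11A1 were also searched, on both strands, for sequences of other factors. A GATA sequence (NGATAA) was present at 4 of 24 sites, a GC box (GGGCGG) at 3 and an AP-1 sequence (TGANTCA) at 2. These are counts of sites, while the shares over the whole lists below are of peaks. By peak, the GATA sequence was in 2 of 5 basal and 3 of 19 overexpressed Millipore members, and in 0 Perseus members. The GC box was in 1 of 19 overexpressed Millipore and 2 of 5 overexpressed Perseus members, and in 0 basal members. The AP-1 sequence was in 2 of 19 overexpressed Millipore members and in 0 of the other lists. The cyclic AMP response element (TGACGTCA), the NR4A element (AAAGGTCA, which shares the run AAGGTCA with some of the SF-1 words) and the NRSF/REST consensus were at 0 sites. Over the whole lists the GATA sequence was in 12.8 to 21.0% of peaks, the GC box in 3.48 to 23.7%, the AP-1 sequence in 4.03 to 5.21%, the cyclic AMP response element in 0.159 to 0.771%, the NR4A element in 0.937 to 1.26% and the NRSF/REST consensus in 0.181 to 1.12%. Among 35116 RefSeq promoters the GATA sequence was in 22.7% and the GC box in 45.0%. A match describes letters only, and with 24 sites an absence says nothing about the factor.

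The peaks near CYP11A1 had a higher median GC content than their lists, at 55.0 against 45.6% (basal Millipore), 59.8 against 55.6% (overexpressed Millipore), 61.5 against 51.0% (basal Perseus) and 63.1 against 54.8% (overexpressed Perseus). In the same order, these medians rest on 5, 19, 3 and 5 peaks, and a shared site counts in each of its lists. The members ranged from 47.8 to 62.8%, 51.4 to 73.9%, 40.6 to 64.6% and 57.8 to 71.9%. The region within 100 kb had a GC content of 52.6%, and its part in the difference was not tested.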
